A study of Danio rerio with 2 samples.

Results

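The genes described here encode heat shock proteins, the cytosolic chaperones and their partners. They were measured in 2 RNA-seq libraries of the adult zebrafish forebrain choroid plexus, an epithelium that secretes into the ventricle and the stroma beneath it. Members were chosen by the gene symbol in the authors' table. Names starting with hspa, hspb, hspd, hspe, hsph, hsp7, hsp9, dnaja, dnajb, dnajc, bag, cct, tcp1, cryab, hsf, stip1 or ahsa1 were taken. A digit was required after bag, cct and hsf. That table leaves out genes close to 0, with a mean TPM of up to 0.005. Genes of these families at that level could therefore not become members. This gave 106 gene entries with 105 symbols, of 25432 genes in the files. The symbol cct2 stands on 2 entries.

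Each library was 1 pool of 12 to 19 dissected tissues. The fish had no treatment, were aged 6 to 8 months and measured more than 3 cm. Per the labels, both pools drew on wild-type AB fish and on nacre fish, which are mitfa-/-, and the share of each in a pool is not given. Fish were killed by cold, the pineal gland was removed and the tissues were held on ice. RNA was purified with glycogen or on spin columns, and the labels do not say which library had which. The libraries are called batch 1 and batch 2 in their titles and replicates 1 and 2 here, and whatever separates the batches also separates the replicates. There is 1 group, so no test between conditions exists and no p-value is given. In pooled whole tissue, fewer cells of a type and less RNA per cell cannot be told apart.

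Chaperones bind proteins that are not yet folded, or that have lost their fold, and many release them in cycles driven by ATP. Hsp70 proteins take up clients handed over by J-domain proteins (the dnaj genes), nucleotide exchange factors such as Hsp110 and BAG proteins reset them, and Hsp90 finishes many kinases and receptors. The chaperonin TRiC, also called CCT, folds actin and tubulin inside a chamber, and small heat shock proteins hold unfolded proteins without using ATP. Some of these genes are transcribed in all cells at all times, and others are switched on by the heat shock factors, above all Hsf1, when proteins unfold.

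Levels are in TPM, a measure of abundance per transcript length that is scaled to the same total in each library, so that genes can be set beside each other. The libraries held 11712489 and 13446356 expected counts. A count of 3 equalled 0.256 and 0.223 CPM (counts scaled by the library total, without regard to length) in replicates 1 and 2. Markers of the choroid plexus epithelium reached 1 TPM for 14 of 14 genes in both libraries. Lists of some other cell types had close sums in both libraries. Endothelial markers summed to 144 and 158 TPM in replicates 1 and 2, macrophage markers to 452 and 419 TPM and smooth muscle and mural markers to 136 and 140 TPM. Single macrophage markers differed in opposite directions, with apoeb at 170 and 61.7 TPM and cd74a at 133 and 197 TPM, so the close sum does not mean matched markers. Other lists were further apart. Pineal and photoreceptor markers summed to 3403 and 63.8 TPM in replicates 1 and 2, with 19 and 13 of 20 entries at 1 TPM or more, and neuron markers to 92.7 and 47.8 TPM, with 13 and 6 of 15. Skeletal muscle markers summed to 17.3 and 247 TPM in replicates 1 and 2, with 4 and 10 of 14 entries at 1 TPM or more. In replicate 1, mybpc2b and an entry of myhz1.1 were at 0. Erythrocyte genes summed to 1773 and 5928 TPM in replicates 1 and 2, with 8 of 8 present in both. The part of these cell types in the values below was not tested.

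The 106 members together held 0.795% of all TPM in replicate 1 and 0.846% in replicate 2, or 0.820 ± 0.0360% (SD, n = 2). Without the 3 members with no known chaperone role, the shares were 0.778% and 0.834%. Of the 106 members, 90 were detected, meaning a TPM of at least 1 in both libraries, which is 84.9%. The same held for 54.6% of all genes and for 66.1% of the 21019 genes in the authors' table, which leaves out genes close to 0. Members could come only from that table, so its shares are the closer background. At 10 TPM or more in both libraries there were 61 members, against 26.3% of all genes and 31.9% of the authors' table. At 100 TPM or more there were 17, against 3.12% and 3.78%. Members among the 1000 most abundant genes numbered 18, or 17.0% of members, against 3.93% of all genes.

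**Figure D1:**
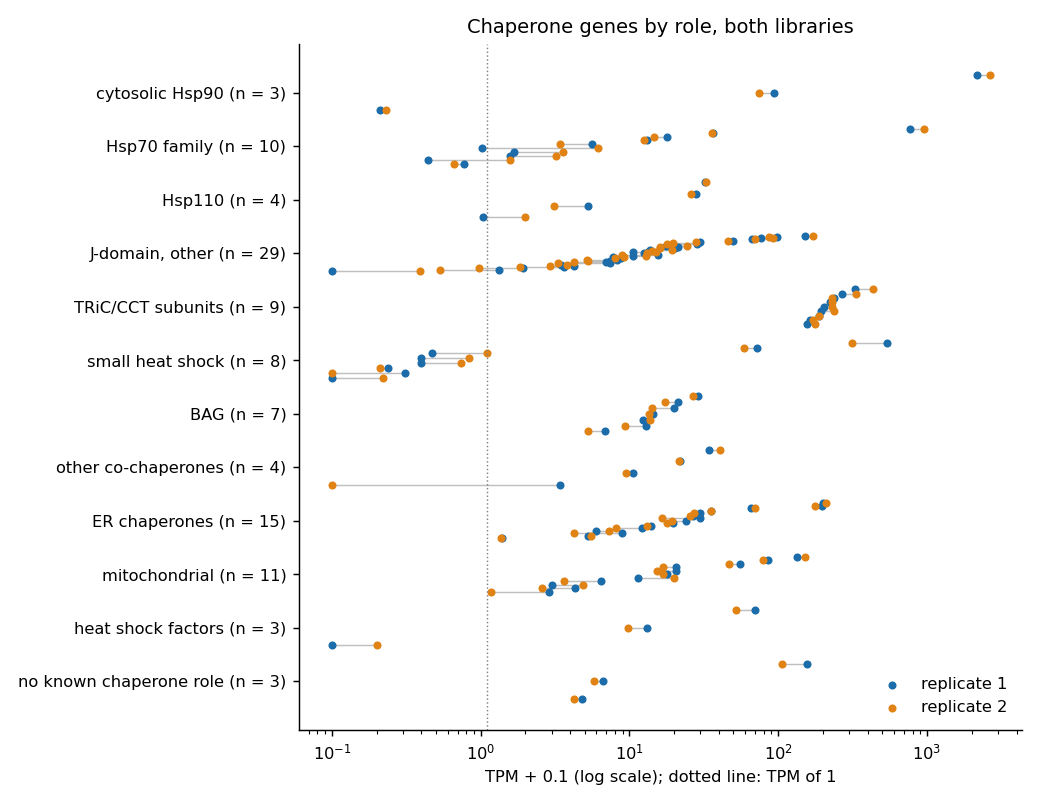
TPM + 0.1 on a log axis for each of the 106 member entries (points, replicate 1 blue and replicate 2 orange, joined by a line). Members are grouped by role down the page, those with no known chaperone role included. TRiC subunits form a narrow band above 100 TPM, and the Hsp70, Hsp90 and small heat shock genes each spread from below 1 TPM to their highest members, hspa8, hsp90ab1 and hspb1.

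The pool of chaperone transcripts was led by a pair of genes that are transcribed without stress. The gene hsp90ab1, the constitutive cytosolic Hsp90, was at 2176 TPM in replicate 1 and 2633 TPM in replicate 2, and stood at rank 83 of all genes by mean TPM. It alone held 29.3 ± 2.66% of the TPM of all members (SD, n = 2). The gene hspa8, the constitutive cytosolic Hsp70, was at 767 and 949 TPM in replicates 1 and 2 and stood at rank 153. Together they held 39.7 ± 3.77% of the members' TPM. The next member by mean TPM, hspb1, was at 537 and 313 TPM.

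The Hsp90 genes were far from equal. The heat-inducible hsp90aa1.2 was at 93.3 and 74.1 TPM in replicates 1 and 2, which is 4.29% and 2.81% of the level of hsp90ab1. Its neighbour hsp90aa1.1, which in zebrafish is the Hsp90 of muscle and serves myosin folding, was at 0.11 and 0.13 TPM, from 2 and 3 counts. It was near 0 in replicate 2 too, where skeletal muscle markers were higher. Both genes lie side by side in the RefSeq annotation of assembly GRCz12tu, with no protein-coding gene between them.

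Among the 10 members of the Hsp70 family outside the endoplasmic reticulum and the mitochondrion, hspa8 was followed at a distance by hspa8b, at 36.4 and 35.8 TPM in replicates 1 and 2. The ribosome-linked Hsp70 hspa14 was at 17.8 and 14.6 TPM. The distant relative hspa12b, known from endothelium, was at 13 and 12.4 TPM, and hspa12a was at 0.67 and 0.56 TPM. The stress-inducible copies were all far below hspa8. Hspa1b was at 5.48 and 3.31 TPM, and hsp70.1, hsp70.2, hsp70.3 and hsp70l were all below 6.1 TPM in both libraries.

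The Hsp110 genes encode exchange factors of Hsp70. Hspa4b was at 32.1 and 32.5 TPM in replicates 1 and 2, hspa4a at 27.9 and 26.0, the inducible hsph1 at 5.13 and 3.03 and hspa4l at 0.94 and 1.89 TPM. The order of these 4 genes was the same in both libraries. The SD over the libraries was 0.262 TPM for hspa4b and 1.32 TPM for hspa4a, which does not measure the error of comparing 2 genes.

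The J-domain genes form the most numerous family, with 49 members. Of these, 46 were detected, against 54.6% of all genes and 66.1% of the authors' table. A TPM of 10 in both libraries was reached by 27, against 26.3% and 31.9%. Only dnaja2a reached 100 TPM, where 3.12% of all genes and 3.78% of the authors' table did. Together they held 1059 and 1027 TPM in replicates 1 and 2. Dnaja2a, a general partner of Hsp70, was at 152 and 170 TPM and its duplicate dnaja2b at 76.6 and 92.0 TPM. Other J-domain genes near these levels have separate tasks. The spliceosome-associated dnajc8 was at 97.8 and 86.3 TPM, and dnajb13, a component of the radial spokes of motile cilia, was at 66.4 and 69.9 TPM. Dnaja1 was at 17.5 and 24.1 TPM, and dnajc7, which binds Hsp70 and Hsp90, at 29.8 and 28.1 TPM. Of the cysteine string proteins, known from synaptic vesicle release, dnajc5ab was at 28.8 and 19.6 TPM, dnajc5ga at 20.3 and 15.9, dnajc5aa at 15.5 and 8.82 and dnajc5gb at 7.34 and 3.23 TPM. All 4 cysteine string genes had a higher TPM in replicate 1, as did 72.0% of all genes that averaged 1 TPM or more. Pineal and neuron markers were higher there too, and their part was not tested.

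Transcripts of TRiC were at a similar and high level for all subunits. Its 8 subunits are encoded by tcp1, cct2, cct3, cct4, cct5, cct6a, cct7 and cct8. All 9 entries exceeded 100 TPM in both libraries, where 3.12% of all genes and 3.78% of the authors' table reached that level. With the second cct2 entry left out, the subunits ran from 156 to 330 TPM in replicate 1, with a median of 198, and from 171 to 431 TPM in replicate 2, with a median of 229. The highest subunit thus stood 2.12-fold above the lowest in replicate 1 and 2.52-fold in replicate 2. Cct6a was highest in both libraries, at 330 and 431 TPM. At the low end, cct4 and cct8 were at 163 and 156 TPM in replicate 1 and at 171 and 178 TPM in replicate 2, so their order changed with the library. Values for cct2 depend on the gene model. Its main entry had an effective length of 731 and 722 bases, and its second entry only 70.9 and 63.1 bases, on which 151 and 164 counts became 238 and 231 TPM. Prefoldin, which delivers clients to TRiC, was much lower, with its 6 subunit genes at 16.1 to 48.8 mean TPM.

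**Figure D2:**
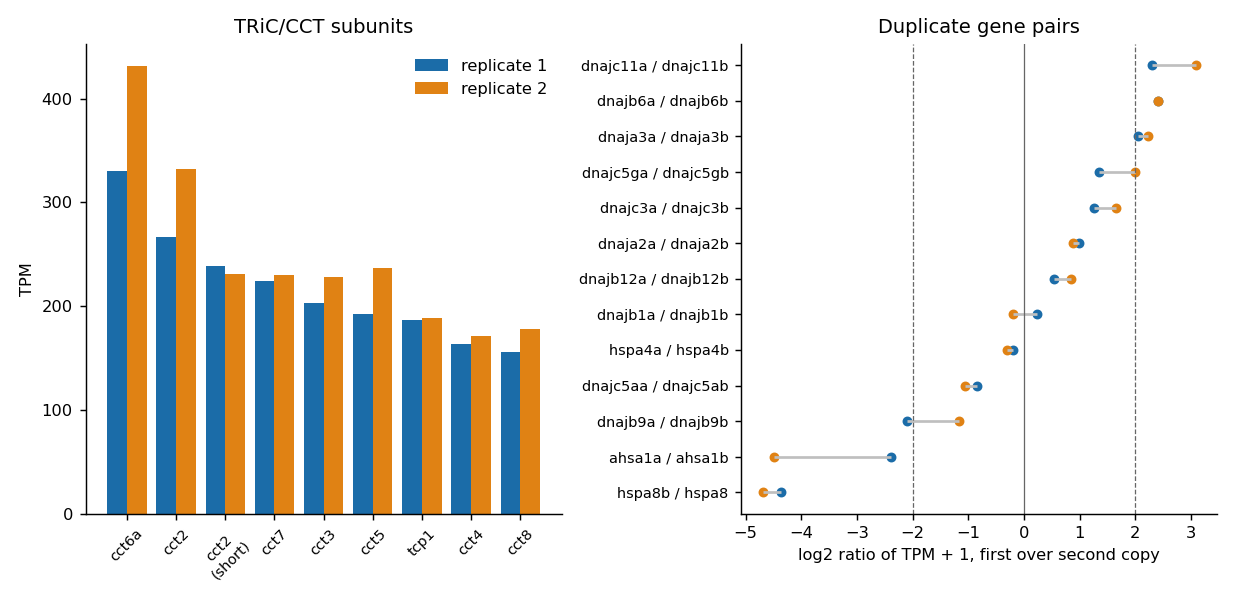
Left, TPM of the TRiC/CCT subunit genes in replicate 1 (blue) and replicate 2 (orange), in which cct6a is highest at 330 and 431 TPM. Right, the log2 ratio of TPM + 1 of the first over the second copy of each duplicate pair in the same colours, in which 5 pairs lie beyond the dashed 4-fold lines on the same side in both libraries.

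Most small heat shock genes were near 0, with hspb1 and hspb8 as the exceptions. Hspb1, the Hsp27 of mammals, stood at rank 3 among the members by mean TPM, after hsp90ab1 and hspa8, with the values given above. In replicate 2, cct6a (431 TPM) and the main cct2 entry (332 TPM) were also above hspb1 (313 TPM). Hspb8, the partner of Bag3 in selective autophagy, was at 71.5 and 58.9 TPM. The other 6 stayed at 1.00 TPM or below in both libraries. These were hspb6 (0.37 and 1.00 TPM), the alpha crystallin gene cryabb (0.30 and 0.73), hspb15 (0.30 and 0.64), hspb7 (0.14 and 0.11), cryaba (0.21 and 0) and hspb11 (0 and 0.12). Thus 2 of 8 were detected, against 54.6% of all genes and 66.1% of the authors' table. The entry named hspb11 rests on 0 and 1 counts.

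All 7 BAG genes were detected, against 54.6% of all genes and 66.1% of the authors' table. They ran from bag6, which guards tail-anchored membrane proteins, at 29.0 and 26.8 TPM in replicates 1 and 2, down to bag5 at 6.72 and 5.17 TPM. Bag6l was at 21.0 and 17.2 TPM. The inducible bag3 was at 12.3 and 13.7 TPM, which is 17.2% and 23.2% of the level of hspb8. Of the helpers of Hsp90, the Hsp70 to Hsp90 adaptor stip1 was at 34.3 and 40.8 TPM. The activators of the Hsp90 ATPase were uneven, with ahsa1b at 21.7 and 21.6 TPM and ahsa1a at 3.33 and 0 TPM. Hspbp1, an exchange factor of Hsp70, was at 10.5 and 9.32 TPM.

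The symbol search also caught chaperones of the endoplasmic reticulum and the mitochondrion. In the endoplasmic reticulum, hspa5 (BiP) was at 200 and 209 TPM in replicates 1 and 2 and hsp90b1 (Grp94) at 198 and 178 TPM. The ratio of hsp90b1 to hspa5 was 0.992 in replicate 1 and 0.851 in replicate 2, so the main Hsp90 and Hsp70 of this compartment were nearly level. In the cytosol, hsp90ab1 was well above hspa8 in both libraries. All 15 genes assigned to the endoplasmic reticulum were detected, against 54.6% of all genes and 66.1% of the authors' table. In the mitochondrion, the co-chaperonin hspe1 was at 134 and 151 TPM, its partner hspd1 at 55.3 and 46.3 TPM and the matrix Hsp70 hspa9 at 85.4 and 78.6 TPM. The genes hspe1 and hspd1 are direct neighbours in the RefSeq annotation of GRCz12tu, and hspe1 was 2.43-fold higher per length in replicate 1 and 3.25-fold in replicate 2. All 11 mitochondrial members were detected, against the same 54.6% and 66.1%.

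Among the heat shock factors, hsf1, the main activator of the heat shock response, was at 69.3 and 51.8 TPM in replicates 1 and 2. Hsf2 was at 12.98 and 9.65 TPM. The ratio of hsf1 to hsf2 was 5.34 in replicate 1 and 5.37 in replicate 2. Hsf4, known from the lens, was at 0 and 0.10 TPM, from 0 and 2 counts, and the 6 matched lens markers summed to 1.73 and 2.45 TPM. The search by name also found genes with no known chaperone role. Of these, tcp11l2 was at 155 and 106 TPM, hspbap1 at 6.57 and 5.71 and tcp11l1 at 4.73 and 4.11 TPM.

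To compare inducible with constitutive members, genes were assigned from what is known of them in vertebrates. The lists were drawn with earlier results of these data known, so they are not independent of the values compared here. The inducible list matched 13 members and the constitutive list 19 entries. Of the inducible members 9 were detected, against all 19 constitutive entries, 54.6% of all genes and 66.1% of the authors' table. The inducible members summed to 680 TPM in replicate 1 and 449 TPM in replicate 2, against 5294 and 6233 TPM for the constitutive members. The inducible sum was thus 12.8% of the constitutive sum in replicate 1 and 7.20% in replicate 2 (10.0 ± 3.99%, SD, n = 2). The median inducible member was at 5.13 and 3.49 TPM in replicates 1 and 2, against 163 and 178 TPM for the median constitutive member. On the log2(TPM + 1) scale the difference of medians, inducible less constitutive, was -4.74 in replicate 1 and -5.31 in replicate 2. Its size rests largely on TRiC, which gives 9 of the 19 constitutive entries, the short cct2 entry included. Against the 10 constitutive entries outside TRiC, whose median was 34.3 TPM in replicate 1 and 34.2 TPM in replicate 2, the difference was -2.52 and -2.97. The inducible sum was then 20.4% of the constitutive sum in replicate 1 and 11.2% in replicate 2. This comparison without TRiC was chosen after the values were seen.

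**Figure D3:**
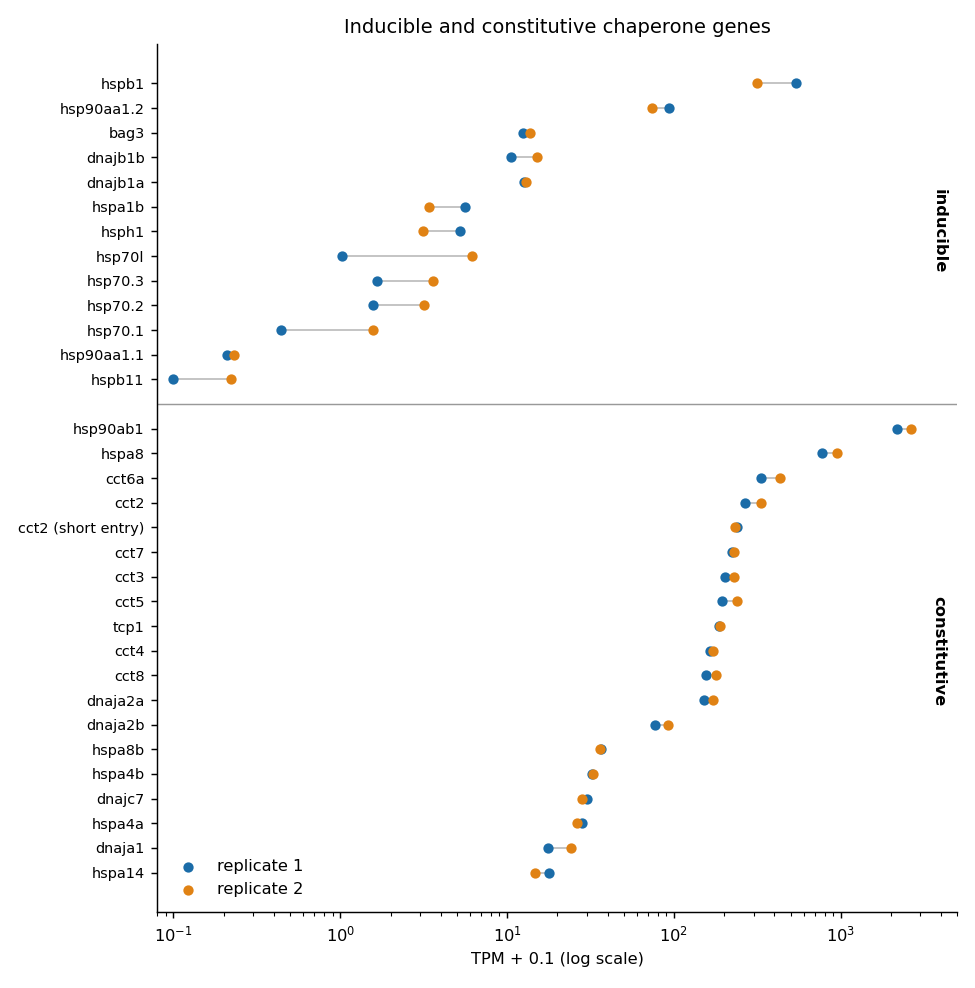
TPM + 0.1 on a log axis for the 13 inducible members (above the line) and the 19 constitutive entries (below it), with replicate 1 in blue and replicate 2 in orange. Of the inducible members, hspb1 and hsp90aa1.2 lie among the constitutive range and the rest lie below its lowest member by mean TPM.

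The 2 lists overlapped through few genes, which depends on how the lists were drawn. Of the 13 inducible members, only hspb1 and hsp90aa1.2 had a mean TPM above that of the lowest constitutive member, hspa14, at 16.2 TPM, and only hspb1 stood above the constitutive median. In replicate 2 alone, dnajb1b, at 15.0 TPM, was also above hspa14, at 14.6 TPM. The other 74 members were in neither list. Many of them had a mean TPM above hspa14, such as hspa5, hsp90b1, dnajc8 and hspa9. This also held for hspe1, hspb8, hspd1, stip1 and ahsa1b. Had any of these been put on the inducible list, the overlap would have been larger. The inducible list also held hsp90aa1.1 and hspb11, which were near 0. Hspb1 made up 78.9% of the inducible sum in replicate 1 and 69.6% in replicate 2, and together with hsp90aa1.2 it made up 92.6% and 86.1%. Without hspb1, which was set apart after its values were seen, the inducible sum was 143 and 136 TPM, or 2.45 ± 0.368% of the constitutive sum (SD, n = 2).

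Below hspb1 and hsp90aa1.2, the inducible J-domain genes and bag3 formed a middle tier. The inducible exchange factor hsph1 was not in it, at 5.13 and 3.03 TPM in replicates 1 and 2. Dnajb1a was at 12.5 and 12.9 TPM in replicates 1 and 2, its duplicate dnajb1b at 10.4 and 15.0 and bag3 at 12.3 and 13.7 TPM. These 3 genes, which are classical Hsf1 targets, overlapped in level across the libraries. All were below every constitutive member by mean TPM, though dnajb1b was above hspa14 in replicate 2. The 19 constitutive entries all reached a TPM of 10 in both libraries, against 26.3% of all genes and 31.9% of the authors' table. Of them 12 reached 100, against 3.12% and 3.78%.

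The 4 classical stress-inducible hsp70 copies were lower still. Hsp70l was at 0.92 TPM in replicate 1 and 6.08 TPM in replicate 2, hsp70.3 at 1.57 and 3.49, hsp70.2 at 1.47 and 3.09 and hsp70.1 at 0.34 and 1.47 TPM. All 4 were higher in replicate 2. Their sum was 4.30 and 14.1 TPM, which is 0.560% and 1.49% of the level of hspa8. Summed over the 4 copies there were 79 and 324 expected counts, and the ratio of CPM was 0.280 (replicate 1 over replicate 2, 95% exact counting interval 0.216 to 0.359). The interval covers counting error only, and the ratio was not corrected for a shift between the libraries over all genes. Counts of these 4 genes and of hspa8 were not whole, so RSEM had divided reads that match more than 1 gene, and their single values are less certain than their sum. The genes hsp70.1, hsp70.2 and hsp70.3 stand in a row in the RefSeq annotation of GRCz12tu. Replicate 2 was also the library with more skeletal muscle and erythrocyte transcripts, and their part in the hsp70 values was not tested. Hspa1b, also inducible, was not higher in replicate 2, with 86 and 65 counts, and neither was hsph1, with 139 and 108.

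To set the libraries beside each other across all genes, each gene was given a log2 ratio of TPM + 1, replicate 1 over replicate 2. The ratios were then centred by removing 0.25, their median over the 15125 genes that averaged 1 TPM or more. Of the 94 members that passed this filter, 4 lay at least 2-fold apart, where 8.77% of all genes did. Of the 94, 1 was higher in replicate 1 by this rule, against 5.22% of all genes, and 3 were higher in replicate 2, against 3.56%. The typical distance between the libraries was the same for members and all genes, with a median absolute log2 ratio of 0.31 and 0.30. With 1 library a side, the 2-fold line is a rule of size and not a test.

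The 4 members were hsp70l (centred log2 ratio -2.14), hsp70.3 (-1.06), dnajc19 (-1.02) and ahsa1a (1.86). Dnajc19, part of the mitochondrial protein import motor, was at 11.3 TPM in replicate 1 and 20.0 TPM in replicate 2, from 70 and 153 counts. Before centring the log2 ratio of TPM + 1 was -0.77 for dnajc19 and -0.80 for hsp70.3, so that on this scale both lie beyond the line only through the centring. Hsp70l (-1.88) and ahsa1a (2.11) lay beyond it without centring too. Without the pseudocount or centring, TPM in replicate 2 was 2.22-fold that of replicate 1 for hsp70.3 and 1.76-fold for dnajc19. For ahsa1a the libraries had 27 and 0 counts, so its CPM was at least 10.3-fold higher in replicate 1 when 3 counts are taken as the floor of replicate 2. The exact 95% counting interval of its CPM ratio, which was not centred, begins lower, at 7.84. Just short of the line was hsp70.2 (-0.98). Hsp70.1 (-1.14) lay beyond it but averaged less than 1 TPM and so was outside the filter. No inducible or constitutive member outside the hsp70 copies passed 2-fold. Among the 77 members that averaged 5 TPM or more, none lay 2-fold apart, where 6.05% of all genes did. That filter removes hsp70l, hsp70.3 and ahsa1a, and the centring that goes with it leaves dnajc19 short of the line.

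**Figure D4:**
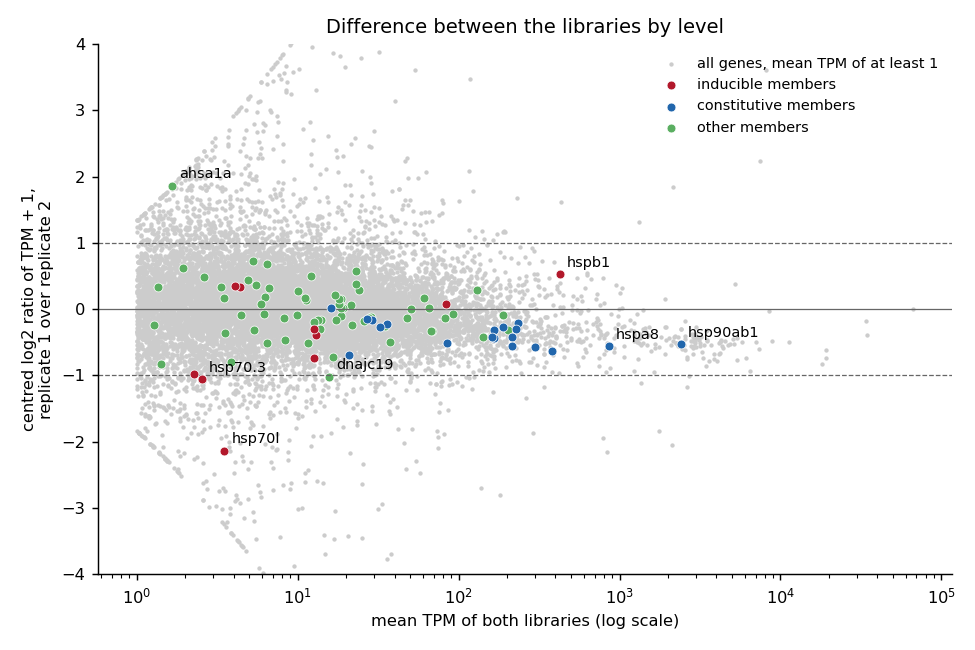
Centred log2 ratio of TPM + 1 (replicate 1 over replicate 2) against mean TPM on a log axis, with all genes in grey and inducible, constitutive and other members in red, blue and green. Dashed lines mark 2-fold and the y axis ends at 4 either way, which leaves 48 grey genes outside. Hsp70l lies lowest among members, hspb1 lies above 0, and hsp90ab1 and hspa8 lie below it.

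Counting every size of difference, 35 of the 94 members were higher in replicate 1, against 50% of all genes, and 59 were higher in replicate 2, against 50%, a background that the centring fixes. This split turned round without centring, when 59 were higher in replicate 1 and 35 in replicate 2, where 28.0% of all genes were higher in replicate 2. Of the 19 constitutive entries, 18 had a negative centred ratio, that is, higher in replicate 2, and 14 did without centring, when the short cct2 entry, dnajc7, hspa4a, hspa8b and hspa14 were higher in replicate 1. The centred median was -0.42, and hspa14 was the exception at 0.01. All 9 TRiC entries were among the 18, and 8 of them were higher in replicate 2 without centring as well. Of 903 genes that averaged 100 TPM or more, 73.4% had a negative centred ratio, with a median of -0.28, and 53.2% had a negative ratio without centring, with a median of -0.025. Of the 17 members at that level, 15 had a negative centred ratio, with a median of -0.42, and 13 had a negative ratio without centring. The exceptions after centring were hspb1 and tcp11l2. From 10 to 100 TPM the centred ratio was negative for 30 of 47 members, against 54.7% of all genes, and from 1 to 10 TPM for 14 of 30 members, against 43.1%.

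The inducible members were split the same way with and without centring. The 10 that averaged 1 TPM or more had a median ratio of -0.35, with 4 higher in replicate 1 and 6 in replicate 2. Higher in replicate 1 were hspb1 (0.52), hsph1 (0.35), hspa1b (0.34) and hsp90aa1.2 (0.08). Higher in replicate 2 were hsp70l, hsp70.3, hsp70.2, dnajb1b (-0.75), bag3 (-0.40) and dnajb1a (-0.30). The median of the inducible members exceeded that of the constitutive members by 0.065. With narrow lists of Hsp70, Hsp90 and J-domain genes alone the difference was -0.23, and without the TRiC entries it was -0.0080, so its direction was not stable. For hspb1 the CPM ratio without centring was 1.58 (replicate 1 over replicate 2, 95% exact counting interval 1.50 to 1.66), on 3752 and 2726 counts. That interval covers counting error only and not the shift that centring removes. With centring, the log2 ratio of CPM + 1 for hspb1 was 0.51. Beside these values, 19 entries of immediate early genes such as fosab, junbb and egr1 summed to 462 TPM in replicate 1 and 323 TPM in replicate 2. Of these, 15 and 12 reached 1 TPM. Egr2b and egr3 were at 0 in replicate 2, but had only 3 and 6 counts in replicate 1. Of the 13 entries that averaged 1 TPM or more, 10 had a centred ratio towards replicate 1 and 3 towards replicate 2. The centring splits all genes evenly. The 3 were dusp1 (-0.52), at 49.37 and 59.45 TPM in replicates 1 and 2, jund (-0.24) and ier2a (-0.15). The part of the immediate early genes in the chaperone values was not tested.

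Zebrafish carry many chaperone genes in duplicate, and 14 pairs were picked by hand from the symbols. Other like-named genes were not counted, such as hsp90aa1.1 with hsp90aa1.2, bag6 with bag6l and dnajc16 with dnajc16l. The counts of pairs depend on that choice. In 13 of them a copy averaged 1 TPM or more. In 5 pairs 1 copy exceeded the other by 4-fold or more on the TPM + 1 scale, in both libraries and in the same direction. Hspa8 exceeded hspa8b 21.1-fold in replicate 1 and 26.5-fold in replicate 2. Dnajb6a, which keeps aggregation-prone proteins soluble, was at 49.9 and 46.0 TPM, against 8.64 and 7.89 TPM for dnajb6b. The mitochondrial dnaja3a was at 20.6 and 15.3 TPM, against 4.24 and 2.48 TPM for dnaja3b. Dnajc11a, a partner of the inner membrane organising complex, was at 17.8 and 16.7 TPM, against 2.80 and 1.08 TPM for dnajc11b, and ahsa1b exceeded ahsa1a as given above. The other pairs ranged from close to several-fold apart. Dnajb9a, which encodes a J-domain protein of the endoplasmic reticulum, was at 14.7% and 30.8% of dnajb9b. These shares rest on few counts, 5 and 6 for dnajb9a and 38 and 28 for dnajb9b. Dnajc5ga exceeded dnajc5gb 2.76-fold in replicate 1 and 4.91-fold in replicate 2. Dnajc3a exceeded dnajc3b 2.5-fold and 3.39-fold, and dnaja2a exceeded dnaja2b 1.99-fold and 1.85-fold. Hspa4a was at 86.7% and 80.0% of hspa4b, and dnajb1a was at 120% of dnajb1b in replicate 1 and at 86.1% in replicate 2, so that the order of the dnajb1 copies was not fixed.

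Other genes of protein quality control came from a list of partners outside the symbol search. Of 60 entries 59 were detected, against 54.6% of all genes and 66.1% of the authors' table. A TPM of 10 in both libraries was reached by 52, against 26.3% of all genes and 31.9% of the authors' table. The list was picked by hand from known genes. The highest was fkbp5, a partner of Hsp90 on steroid receptors, at 1924 TPM in replicate 1 and 1947 TPM in replicate 2. It was higher than every member except hsp90ab1. The polyubiquitin gene ubc was at 828 and 505 TPM, the Hsp90 co-chaperone ptges3a (p23) at 247 and 236, and the disulfide isomerase pdia3 at 217 and 238 TPM. The stress regulator atf4a was at 229 and 182 TPM and atf4b at 169 and 112 TPM. The lectin chaperone genes calr3a and canx were at 210 and 196 and at 223 and 183 TPM. The Hsp70 partner st13 was at 117 and 191 TPM and the unfoldase vcp at 144 and 148 TPM. Of the 59 entries that averaged 1 TPM or more, 3 lay at least 2-fold apart, against 8.77% of all genes either way. All 3 were higher in replicate 1, where 5.22% of all genes were. The myosin chaperone unc45b, a partner of hsp90aa1.1 in muscle, was the entry not detected, at 0.13 and 0.25 TPM.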

How the data were processed

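Per the submitters' processing notes, reads were processed with STAR and RSEM 1.3.3 on genome build GRCz11. The STAR version was not given in the sources used here, nor was the annotation. Each library's deposited table held expected counts, TPM, effective lengths and FPKM, per the file headers, and the deposited FPKM were not used. The authors' series table of mean TPM gave the gene names. It matched the mean over the libraries within 0.005. No coordinates are given, since no annotation of GRCz11 was used here.

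Members were found by symbol and joined by Ensembl ID. The members and lists were chosen with earlier results of these data known. CPM were computed from the expected counts. SD are over n = 2. Ratios used TPM plus a pseudocount of 1. TMM factors came from edgeR 4.0.16, with counts rounded, and counting intervals from scipy 1.17.1. Alternatives changed the unit, pseudocount, filter, fold, lists and libraries.

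Named genes were the inducible and constitutive members, members at a mean TPM of at least 100 or 2-fold apart, the top 2 of each other role and the 10 highest other quality control genes. Further members were named after their values were seen. The replicates are separate pools, which the labels do not tie to separate days.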

Additional observations from a re-analysis of the deposited data

How the results depend on the processing

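No paired analysis was possible because there is a single group. The count of detected members ranged from 74, at 5 TPM, to 94, at 0.5 TPM, over the thresholds tried and with either replicate left out. It thus moved with the threshold. Shares of all genes are not given for these settings, so these counts do not set members apart from other genes. The members' share of all TPM was 1.31% with CPM, 1.2% with mitochondrially encoded and ribosomal protein genes out of the total, and 0.494% without hsp90ab1 and hspa8. The inducible sum as a share of the constitutive sum was 5.34% with CPM, 3.51% with the narrow lists, 2.45% without hspb1, 22.9% without hsp90ab1 and hspa8 and 15.8% without the TRiC entries. The lists without those genes were added after the data were seen. The difference of medians was -4.21 with members averaging 1 TPM or more, -5.58 with the narrow lists, -5.69 with hspb1 and hsp90aa1.2 counted as constitutive and -2.74 without the TRiC entries, the last 2 also added later. It was below 0 in every setting run, all of which drew on genes of the same lists. Members 2-fold apart numbered 7 of 94 with a pseudocount of 0.1 (13.4% of all genes), 0 of 77 among those averaging 5 TPM or more (6.05%), and 1 of 94 at 4-fold, which was hsp70l (2.12%). With CPM there were 5, against 8.32% of all genes with TMM factors and 8.24% with median centring. Of these, 3 were among the 4, dnajc19 was lost, and hsp70.2 and hspa4l were gained. Between the libraries the median ratio of inducible less constitutive members was 0.059 with a pseudocount of 0.1, 0.11 among members averaging 5 TPM or more, 0.020 with no filter, 0.054 with CPM, -0.23 with the narrow lists and -0.0080 without the TRiC entries, so its sign depends on the list. The cause was not tested. Without centring, a setting added after the data were seen, the majority of members changed sides, as given above. Under both CPM scalings it did not, but these also remove a shift between the libraries, so they cannot show the split without such a correction. Genes near 0 rest on a few counts, as hsp90aa1.1, hspb11 and hsf4 do. With 2 libraries, an SD is only their difference.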

Other observations

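Some stress genes of the quality control list differed between the libraries in the other direction from the hsp70 copies. The entries UBB and ubb, which carry polyubiquitin genes, had 78.9 TPM and 42.8 TPM in replicate 1 against 20.5 TPM and 7.68 TPM in replicate 2. The stress regulator ddit3 was at 56.2 and 20.7 TPM. These were the 3 of 59 entries of that list that lay 2-fold apart, and they were higher in replicate 1, while hsp70l, hsp70.1, hsp70.2 and hsp70.3 were higher in replicate 2. The count of 3 is near the share of all genes 2-fold higher in replicate 1, 5.22%. Counting every size of difference, 15 of the 59 had a centred ratio towards replicate 1 and 44 towards replicate 2. In replicate 1, counts of ubb and UBB were not whole, so their single values are less certain. They were named after their values were seen.

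A reference table of symbols gave names of these families to 11 further gene IDs, of which 9 were at 0 in both libraries. The exceptions were an entry the reference calls dnaja (CABZ01080568.1 in the authors' table), at 25.9 and 16.7 TPM, and an entry it calls hspb11 (zgc:158640 in the authors' table), at 13.8 and 14.7 TPM. The authors' table gives the name hspb11 to a different entry, which had 0 and 1 counts.

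For 7 members the effective length used by RSEM differed more than 1.2-fold between the libraries. One was hspb8, with effective lengths of 1930 and 2365 bases in replicates 1 and 2. Its TPM was higher in replicate 1 (71.5 and 58.9) and its CPM in replicate 2 (105 and 116), so its direction depended on the unit. Dnajc27 was at 4.12 and 2.81 TPM from 105 and 49 counts, with effective lengths of 2852 and 1552 bases, so that its CPM ratio was 2.46 (replicate 1 over replicate 2) and its TPM ratio 1.47. Dnajb2 was at 13.7 and 19.4 TPM from 149 and 170 counts, with effective lengths of 1214 and 782 bases, and its CPM ratio was 1.01.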
